A study of Mus musculus with 24 samples.

Results

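Mitochondrial ribosomal protein genes were followed in mouse CD4 T cells that lack or carry TRIM28, before and after stimulation through the T cell receptor. The genes were chosen by name: every symbol that begins with Mrpl or Mrps and a digit, without pseudogenes, each measured by its highest-mean probe set among those with 1 listed gene. The array holds 78 such genes. Mrpl30, Mrpl33, Mrpl41, Mrpl43, Mrpl44, Mrpl53 and Mrps6 lie only on probe sets shared with another gene and were not analysed here, which left 71 of the 22180 genes tested. Of the 71, 45 encode proteins of the large subunit and 26 proteins of the small subunit, with Mrps18a and Mrps30 counted in the large subunit, where their proteins sit in mammals.

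The mitochondrial ribosome is encoded by 2 genomes. Its ribosomal RNAs come from mitochondrial DNA, while all of its proteins are made in the cytosol from nuclear genes and imported. It translates the hydrophobic core subunits of the respiratory chain and of ATP synthase that mitochondrial DNA encodes. Some of its proteins descend from bacterial ribosomal proteins and others were added in the mitochondrial lineage. Naive T cells are quiescent, and activation is accompanied by growth, new mitochondria and proliferation. TRIM28, also called KAP1, is a co-repressor recruited to chromatin by KRAB zinc finger proteins.

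The 24 Affymetrix arrays formed 8 groups of 3. They came from naive CD4 T cells of TRIM28 knockout mice (KO) and of wild-type littermates (WT), each before stimulation (0 h) and after 4, 24 and 72 h with plate-bound anti-CD3 and soluble anti-CD28. All cells were enriched magnetically and then sorted. How TRIM28 was deleted and which sort gate was used is not stated in the sources used here, nor whether each array of a group came from its own animal. The p-values therefore cover array-to-array spread, some of which may be technical.

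Values are log2 intensities, on which a difference of 1 is a 2-fold change, and they describe each gene relative to the same gene in other groups, not to other genes. Trim28 lay between 4.93 and 5.80 on the 12 KO arrays and between 7.71 and 9.26 on the 12 WT arrays. Array medians ranged from 3.59 to 3.76 and correlations within groups from 0.981 to 0.992. The arrays numbered 3 in every group had Xist at 3.03 to 4.79 and Eif2s3y at 7.995 to 8.69, the pattern of male cells. Those numbered 1 and 2 had Xist at 9.61 to 10.29 and Eif2s3y at 2.14 to 2.75, the pattern of female cells. Every group therefore held cells of both sexes, and so of more than 1 animal, with sex tied to the array number. The 5 measured T cell markers were strongly detected in every group, and the summed intensity of the B cell, CD8, myeloid, natural killer and erythroid lists stayed far below theirs. In bulk RNA, fewer cells of a type and less RNA per cell cannot be told apart. "Past the threshold" below means an adjusted p under 0.05 in limma, with Benjamini-Hochberg adjustment over all 22180 genes.

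The promoters of genes that move together are shown first. RefSeq promoters (GRCm38.p6, 250 bases before to 50 after the start) were matched for 62 of the 71 genes. Printed are those of 4 genes that were lower in KO cells at 24 h, 1 for each kind of match found among them and 1 without any match. Capitals mark the motif, and each promoter is written in the direction of its gene. Mrpl50 lies on the minus strand at chr4:49521034-49521333, Mrpl2 on the plus strand at chr17:46645971-46646270, Mrpl3 on the plus strand at chr9:105053018-105053317 and Mrps7 on the plus strand at chr11:115603890-115604189.
Mrpl50: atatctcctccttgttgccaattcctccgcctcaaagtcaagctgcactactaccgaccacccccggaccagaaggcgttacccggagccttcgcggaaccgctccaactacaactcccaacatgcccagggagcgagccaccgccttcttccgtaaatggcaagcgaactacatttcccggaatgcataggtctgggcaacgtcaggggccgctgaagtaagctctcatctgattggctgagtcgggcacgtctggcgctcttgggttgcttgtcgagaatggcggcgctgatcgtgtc
Mrpl2: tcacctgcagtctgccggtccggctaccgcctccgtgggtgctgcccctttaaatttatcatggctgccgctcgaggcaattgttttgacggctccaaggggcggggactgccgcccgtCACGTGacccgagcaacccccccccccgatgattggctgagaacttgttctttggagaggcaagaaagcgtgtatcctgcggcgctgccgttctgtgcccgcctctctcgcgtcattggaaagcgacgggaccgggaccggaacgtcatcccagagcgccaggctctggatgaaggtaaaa
Mrpl3: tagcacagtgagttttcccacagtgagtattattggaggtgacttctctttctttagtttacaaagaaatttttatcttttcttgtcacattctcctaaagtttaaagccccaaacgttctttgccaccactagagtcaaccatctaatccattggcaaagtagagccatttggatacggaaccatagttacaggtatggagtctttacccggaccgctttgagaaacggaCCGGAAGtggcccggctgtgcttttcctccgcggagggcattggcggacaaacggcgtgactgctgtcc
Mrps7: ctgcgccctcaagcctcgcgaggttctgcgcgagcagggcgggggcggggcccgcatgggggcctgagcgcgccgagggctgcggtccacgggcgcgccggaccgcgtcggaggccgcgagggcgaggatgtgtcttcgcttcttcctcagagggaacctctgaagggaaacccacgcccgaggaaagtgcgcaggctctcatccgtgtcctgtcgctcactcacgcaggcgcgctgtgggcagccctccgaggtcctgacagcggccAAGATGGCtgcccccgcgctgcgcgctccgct

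The 4 sequences were searched on both strands: CCGGAAG, the core read by ETS factors such as GABP, AAGATGGC, a YY1-type element, CACGTG, the E-box bound by MYC-MAX, and the NRF1-type palindrome. No match of one overlapped a match of another in the promoters printed. In Mrpl2 the E-box began 131 bases before the start, in Mrpl3 the ETS core began 19 bases before it, and in Mrps7 the YY1-type element began 18 bases after it. The Mrpl50 window held none of these letters. CCGGAAG was present in 23 of the 62 promoters (37.1%), against 12.7% of 16990 promoters of genes tested. AAGATGGC was present in 12 (19.4%), against 3.64%, and the NRF1-type palindrome in 3 (4.84%), against 1.49%. CACGTG was present in 5 (8.06%), against 9.19%. The members' promoters held a median of 20.6 CpG dinucleotides, against 13.5 over all, and their median GC content was 58%, against 56.3%. Among the 24 promoters of genes lower in KO cells at 24 h, CCGGAAG was in 29.2% and AAGATGGC in 12.5%, against 42.1% and 23.7% of the 38 others. CACGTG was in 8.33% of the 24, against 7.89% of the 38, and the NRF1-type palindrome in 0, against 3. These matches are descriptions of the letters in the windows and were not tested.

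Most of these genes were higher after stimulation in both genotypes, and the difference between genotypes appeared at 24 h. The series holds no unstimulated cells cultured for the same times, so stimulation and time in culture cannot be told apart. The mean over the 71 genes was 6.26 ± 0.01 in KO cells and 6.24 ± 0.01 in WT cells at 0 h (SD, n = 3 arrays each). At 4 h it was 6.66 ± 0.06 in KO cells and 6.65 ± 0.10 in WT cells. At 24 h it was 7.07 ± 0.04 in KO cells and 7.34 ± 0.02 in WT cells. At 72 h it was 7.03 ± 0.01 in KO cells and 6.95 ± 0.03 in WT cells. The arrays of the genotypes interleaved at 4 h, stood apart with KO lower at 24 h, and stood apart by a small margin with KO higher at 72 h.

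**Figure D1:**
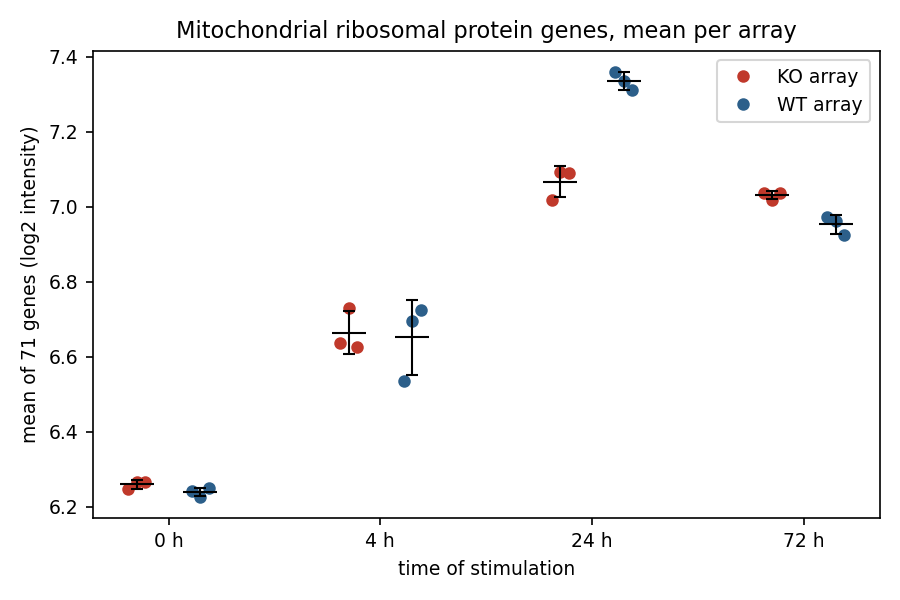
Mean log2 intensity of the 71 mitochondrial ribosomal protein genes (y axis) on each array at 0, 4, 24 and 72 h of stimulation (x axis); points are arrays, long bars group means and whiskers 1 SD of 3 arrays. At 24 h the KO arrays lie between 7.02 and 7.09, below the WT arrays at 7.31 to 7.36.

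Within the first 4 h, 40 of the 71 genes rose and 4 fell in KO cells, and 44 rose and 3 fell in WT cells. Over all genes the shares were 15.1% higher and 16% lower in KO cells, and 16.8% higher and 17.8% lower in WT cells. The median change of the 71 was 0.39 in each genotype, against 0.00 over all genes in each. Of the 71, 37 rose in both genotypes, and the share of all genes that did so was not taken.

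Among the early risers of the large subunit, Mrpl20, whose bacterial relative acts early in subunit assembly, had 6.43, 6.57 and 6.93 on the KO arrays at 4 h, against 5.34, 5.11 and 5.70 at 0 h. In WT cells it had 6.43, 6.85 and 6.75 at 4 h, against 5.28, 5.40 and 5.35 at 0 h. The times did not overlap in either genotype, and the change was 1.26 in KO cells (SE 0.14, adjusted p = 3.8e-08) and 1.33 in WT cells (SE 0.14, adjusted p = 1.17e-08). Mrpl12, the stalk protein that also binds the mitochondrial RNA polymerase, rose by 1.03 in KO cells and 1.35 in WT cells. Mrpl50, a mitochondria-specific protein, rose by 1.06 in KO cells and 1.28 in WT cells. Mrpl15 rose by 1.06 in KO cells and 0.87 in WT cells, and Mrpl47 by 0.96 in KO cells and 1.09 in WT cells.

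A few genes dipped at 4 h. Mrpl58, also known as ICT1, a peptidyl-tRNA hydrolase that frees stalled ribosomes, had 7.56, 7.61 and 7.36 on the KO arrays at 4 h, against 8.50, 8.29 and 8.34 at 0 h. In WT cells it had 7.22, 7.28 and 7.40 at 4 h, against 8.19, 8.16 and 8.32 at 0 h. All arrays at 4 h were below all at 0 h, and the change was -0.87 in KO cells and -0.92 in WT cells (adjusted p = 4.78e-10 and 1.06e-10). Mrpl34, the relative of a small bacterial large-subunit protein, changed by -0.53 in KO cells and -0.85 in WT cells. Mrps34 (-0.47) and Mrpl4 (-0.39) were the other genes that fell in KO cells, and Mrpl14 (-0.44), at whose protein the MALSU1 assembly factor docks, the other in WT cells. The calls for Mrpl4 and Mrpl14 were lost without 1 of several arrays, KO 0 h array 2 or KO 4 h array 3 for Mrpl4 and WT 0 h array 3 or WT 4 h array 1 for Mrpl14.

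Between 4 and 24 h, 46 genes rose and 2 fell in KO cells (15.3% and 13% of all genes), and 61 rose and 0 fell in WT cells (21.2% and 11.5% of all genes). At an unadjusted p under 0.05 in limma, 0 fell in WT cells too. The median change of the 71 was 0.35 in KO cells and 0.68 in WT cells, against 0.01 and 0.05 over all genes. Mrpl34 showed the widest step, at 1.67 in KO cells and 1.90 in WT cells. Mrpl42 rose by 1.23 in KO cells and 1.44 in WT cells. Mrpl45, which tethers the ribosome to the inner membrane, rose by 1.25 in KO cells and 1.35 in WT cells. Mrpl4 rose by 1.12 in KO cells and 0.85 in WT cells. Mrpl14 rose by 0.81 in KO cells and 1.55 in WT cells, and Mrpl18 by 1.10 in KO cells and 1.46 in WT cells. The genes that fell in KO cells were Mrps36 (-0.53), also described as a subunit of the 2-oxoglutarate dehydrogenase complex, and Mrpl24 (-0.20). The call for Mrpl24 was lost without KO array 2 or 3 at either time.

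Measured against unstimulated cells, the programme at 24 h was broad. In KO cells 64 genes were higher and 0 lower, and in WT cells 67 were higher and 0 lower, with 0 lower at an unadjusted p under 0.05 in limma in either. All genes stood at 17.6% higher and 16.5% lower in KO cells, and at 23.2% higher and 16.5% lower in WT cells. The median change was 0.84 in KO cells and 1.11 in WT cells, against 0.01 and 0.04 over all genes. The 64 genes higher in KO cells were all higher in WT cells, an overlap that was not counted over all genes. By subunit, 40 of 45 large-subunit genes and 24 of 26 small-subunit genes were higher in KO cells, and 43 of 45 and 24 of 26 in WT cells.

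Mrpl12 led in both genotypes. It had 7.71, 7.83 and 7.80 on the KO arrays at 24 h, against 6.13, 5.98 and 6.49 at 0 h, and 8.29, 8.17 and 8.23 on the WT arrays at 24 h, against 6.01, 6.04 and 6.09 at 0 h. The arrays of 24 h lay more than 1 log2 unit above those of 0 h in each genotype, a change of 1.58 in KO cells (SE 0.098, adjusted p = 5.25e-13) and 2.18 in WT cells (SE 0.098, adjusted p = 4.39e-16). Mrps22, a mitochondria-specific protein of the small subunit, rose by 1.55 in KO cells and 2.09 in WT cells. Mrpl42 rose by 1.41 in KO cells and 1.87 in WT cells. Mrpl45 rose by 1.49 in KO cells and 1.71 in WT cells, and Mrpl50 by 1.35 in KO cells and 2.06 in WT cells.

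The 4 genes that did not pass in WT cells at 24 h against 0 h were Mrps14, Mrpl24, Mrps36 and Mrpl27. Mrps14, a head protein of the small subunit with a bacterial relative, was at 4.13, 4.58 and 4.15 on the KO arrays at 24 h and at 3.89, 4.36 and 3.87 on the WT arrays, and its arrays of 24 h overlapped those of 0 h in both genotypes. Mrps14, Mrps36 and Mrpl27 had low values throughout, with Mrpl27 averaging 3.51 over all arrays, and low values are compressed in these units. Mrpl24 was well above that range and kept a narrow course, with 8 group means spanning 0.21.

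**Figure D2:**
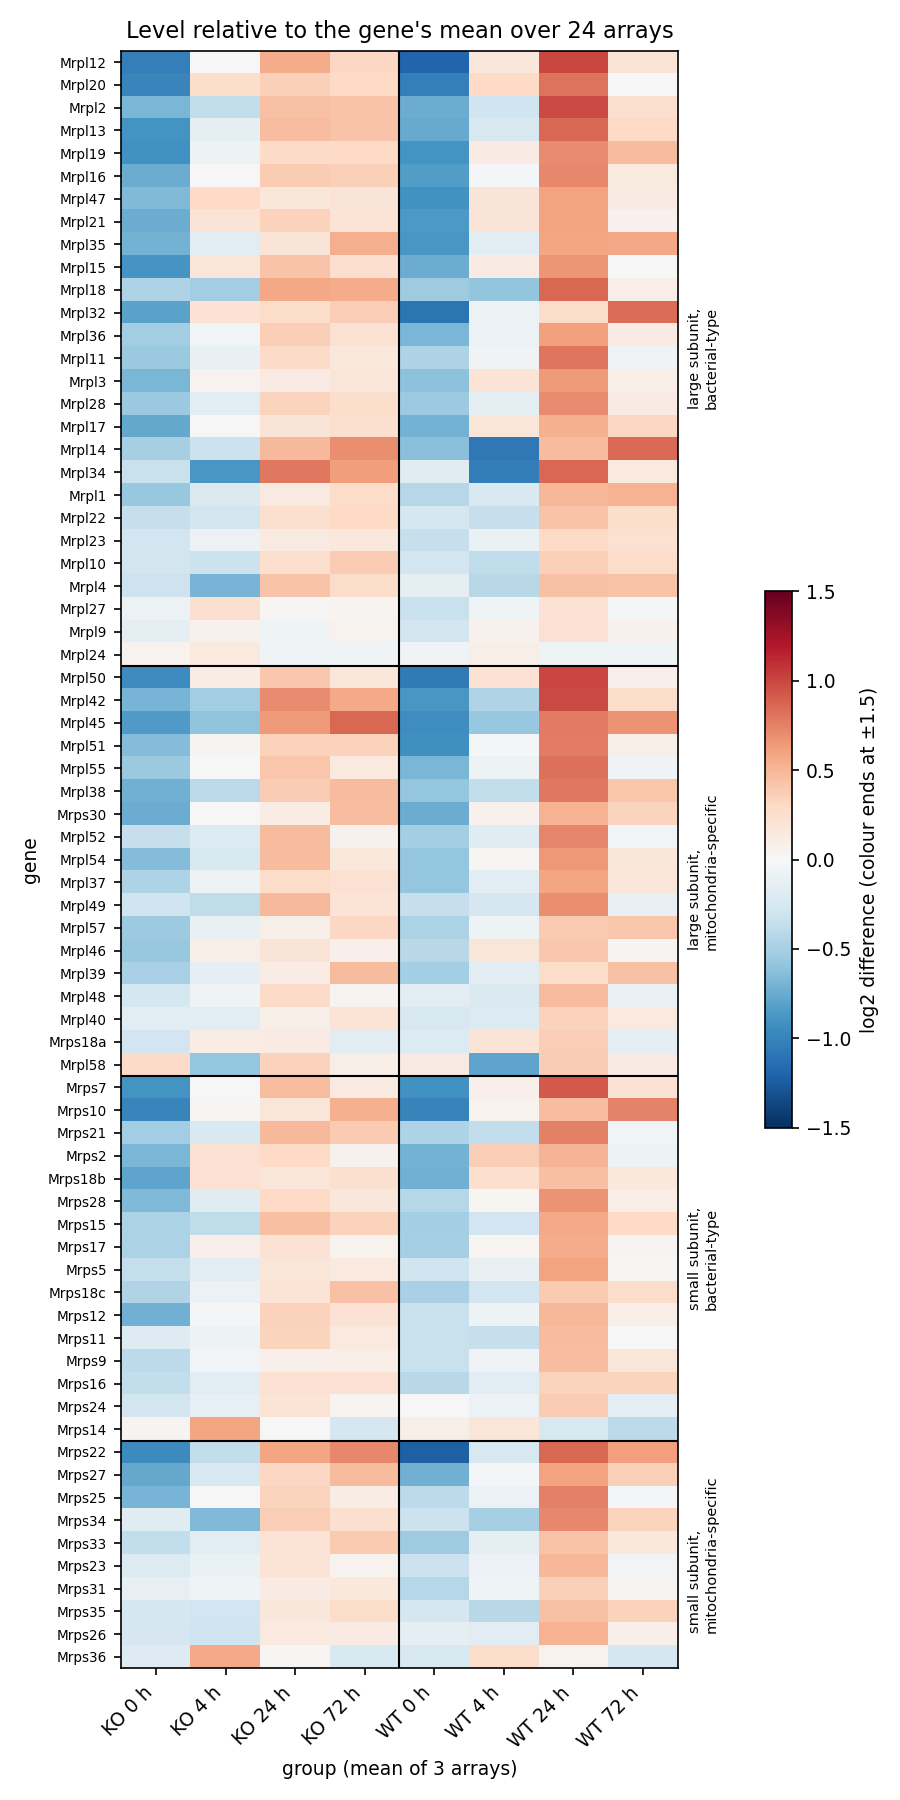
Group means of the 71 genes (rows, ordered by subunit and origin) in the KO groups, then the WT groups, at 0, 4, 24 and 72 h (columns), as the log2 difference from the gene's own mean over 24 arrays. Most rows turn from blue at 0 h to red at 24 h in both genotypes, and the WT column at 24 h is the reddest for 61 of the 71 genes within that genotype.

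The genes followed one another closely. Across the 8 group means, the median correlation of a gene with the mean of the other 70 was 0.92 as a description over 8 groups that share arrays with every gene, and 43 genes were above 0.9. No such value was taken for genes outside the family, many of which also rose after stimulation. The correlations therefore do not set these genes apart. The 5 lowest were Mrps14 (-0.51), Mrpl24 (-0.43), Mrps36 (0.08), Mrpl58 (0.23) and Mrps18a (0.62). In KO cells 39 genes had their highest group mean at 24 h and 26 at 72 h. In WT cells 61 had it at 24 h and 7 at 72 h. The earliest time was the lowest for 58 genes in KO cells and 55 in WT cells. On the genome, 11 of the 71 genes lay on chromosome 11 (15.5%, against 7.48% of all genes tested) and 8 on chromosome 17 (11.3%, against 4.87%).

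At 24 h, 30 of the 71 genes were lower in KO than in WT cells and 0 were higher, also at an unadjusted p under 0.05 in limma. Over all genes, 7.38% were lower and 3.9% higher. Among the 13308 genes above the 40th percentile of mean level, to which all 71 belong, 11.6% were lower. The median difference of the 71 was -0.27, against -0.05 over all genes and -0.06 above that percentile. Of the 71 differences, 68 were below 0, and the share of all genes below 0 was not taken. On 47 genes every KO array was below every WT array, a pattern that 18.8% of all genes showed. The count was 16 without KO array 1 and 19 without WT array 1 of that time, and 20 with arrays 1 and 2 of every group alone.

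**Figure D3:**
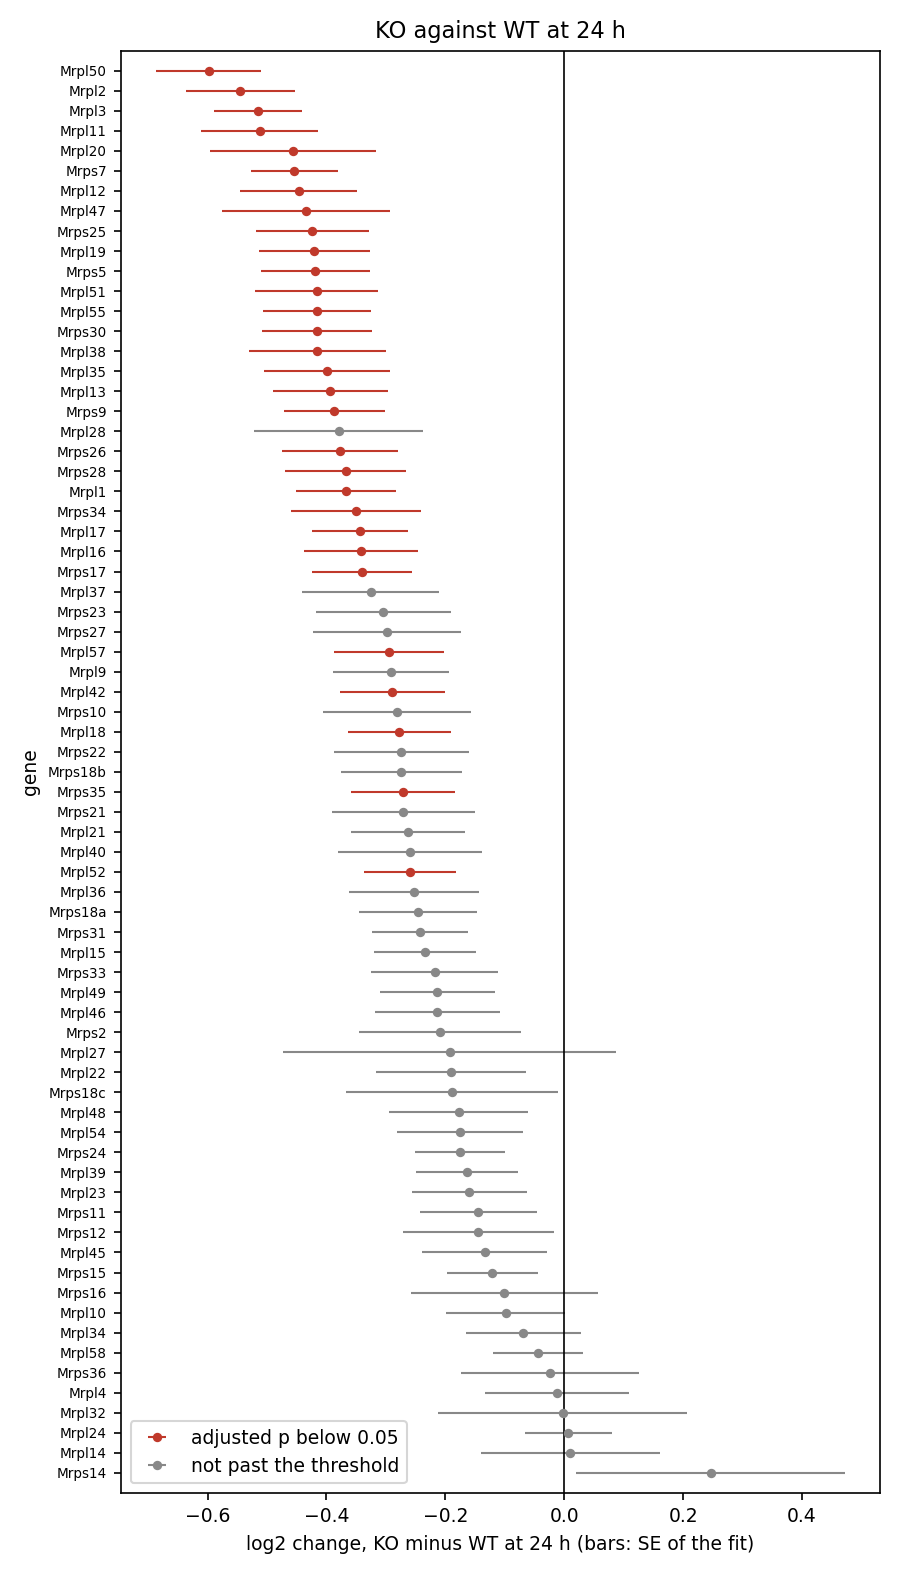
Difference of each of the 71 genes (y axis) between KO and WT cells at 24 h, in log2 units (x axis), with 1 SE of the fit; red points passed an adjusted p of 0.05. The differences run from -0.60 for Mrpl50 to 0.25 for Mrps14, and the 30 red points all lie left of 0.

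Of the large subunit, 21 of 45 genes were lower, 13 of 27 with bacterial relatives and 8 of 18 mitochondria-specific. Mrpl50 had 7.79, 7.90 and 8.06 on the KO arrays, against 8.61, 8.44 and 8.48 on the WT arrays. The highest KO array was below the lowest WT array, and the difference was -0.60 (SE 0.089, adjusted p = 5.5e-05). Mrpl2, whose bacterial relative lies next to the peptidyl transferase centre, had 7.30, 7.42 and 7.25 on the KO arrays, against 7.99, 7.85 and 7.76 on the WT arrays. These values did not overlap either, and the difference was -0.54 (SE 0.092, adjusted p = 0.000243).

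Mrpl3, another core protein with a bacterial relative, had 7.27, 7.42 and 7.46 on the KO arrays, against 7.94, 7.87 and 7.88 on the WT arrays. Every KO array was lower, by -0.51 in the mean (SE 0.074, adjusted p = 3.44e-05). Mrpl11, at the base of the stalk that receives translation factors, had 6.29, 6.51 and 6.49 on the KO arrays, against 7.01, 6.93 and 6.88 on the WT arrays. Here too the groups were apart, with a difference of -0.51 (SE 0.098, adjusted p = 0.000953). The other 17 large-subunit genes past the threshold differed by -0.46 (Mrpl20) to -0.26 (Mrpl52), among them Mrpl12 at -0.45 and Mrps30 at -0.42. The calls for Mrpl20 and Mrpl52 were each lost without at least 1 of the arrays of 24 h.

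Of the small subunit, 9 of 26 genes were lower, 5 of 16 with bacterial relatives and 4 of 10 mitochondria-specific. Mrps7, which builds the head of the small subunit in bacteria, had 8.04, 8.11 and 8.07 on the KO arrays, against 8.47, 8.54 and 8.57 on the WT arrays. The arrays were tight within each genotype and apart between them, with a difference of -0.45 (SE 0.074, adjusted p = 0.000158). Mrps25 differed by -0.42, Mrps5, the relative of a bacterial protein that affects decoding accuracy, by -0.42, and Mrps35 by -0.27.

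Some genes with differences of similar size did not pass. Mrpl28 had 5.25, 5.60 and 5.80 on the KO arrays, against 5.80, 5.96 and 6.02 on the WT arrays, a difference of -0.38 with an adjusted p of 0.089. Every KO array lay below every WT array, at the closest by less than the rounding shown. Mrps14 had the highest difference, 0.25, with an adjusted p of 0.596. Mrpl34, Mrpl58, Mrpl4, Mrpl32, Mrpl24 and Mrpl14 differed by -0.07 to 0.01, and their values do not show that the genotypes were alike.

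For 9 genes the array holds a second probe set. Its difference at 24 h was below 0 in all 9, from -0.61 for Mrps17 to -0.18 for Mrps16, against -0.34 and -0.10 on the probe sets used. The second probe sets of Mrpl47, Mrps16 and Mrps18b had mean levels of 4.80 to 7.57, and those of the other 6 genes had levels of 3.05 to 4.43, at which changes are compressed.

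Markers of other cells also moved at 24 h. Of 5 B cell markers 0 passed the threshold, and their summed intensity was 97.2 to 154 on the KO arrays, against 74.4 to 87.5 on the WT arrays. Of the CD8 markers, Cd8b1 was lower in KO cells and Cd8a did not pass, with sums of 63.5 to 75.3 on the KO arrays, against 82.3 to 91.9 on the WT arrays. Myeloid sums were 57.0 to 70.5 on the KO arrays, against 52.8 to 63.1 on the WT arrays, with 0 of 7 past the threshold. The T cell sums were 9523 to 10562 on the KO arrays, against 9122 to 9897 on the WT arrays, with Cd3d, Cd3g and Cd3e higher in KO cells. Natural killer sums were 56.8 to 62.7 on the KO arrays, against 63.2 to 73.0 on the WT arrays, and Eomes, lower in KO cells, was the 1 of 4 that passed. The part of these cells in the result was not tested.

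**Figure D4:**
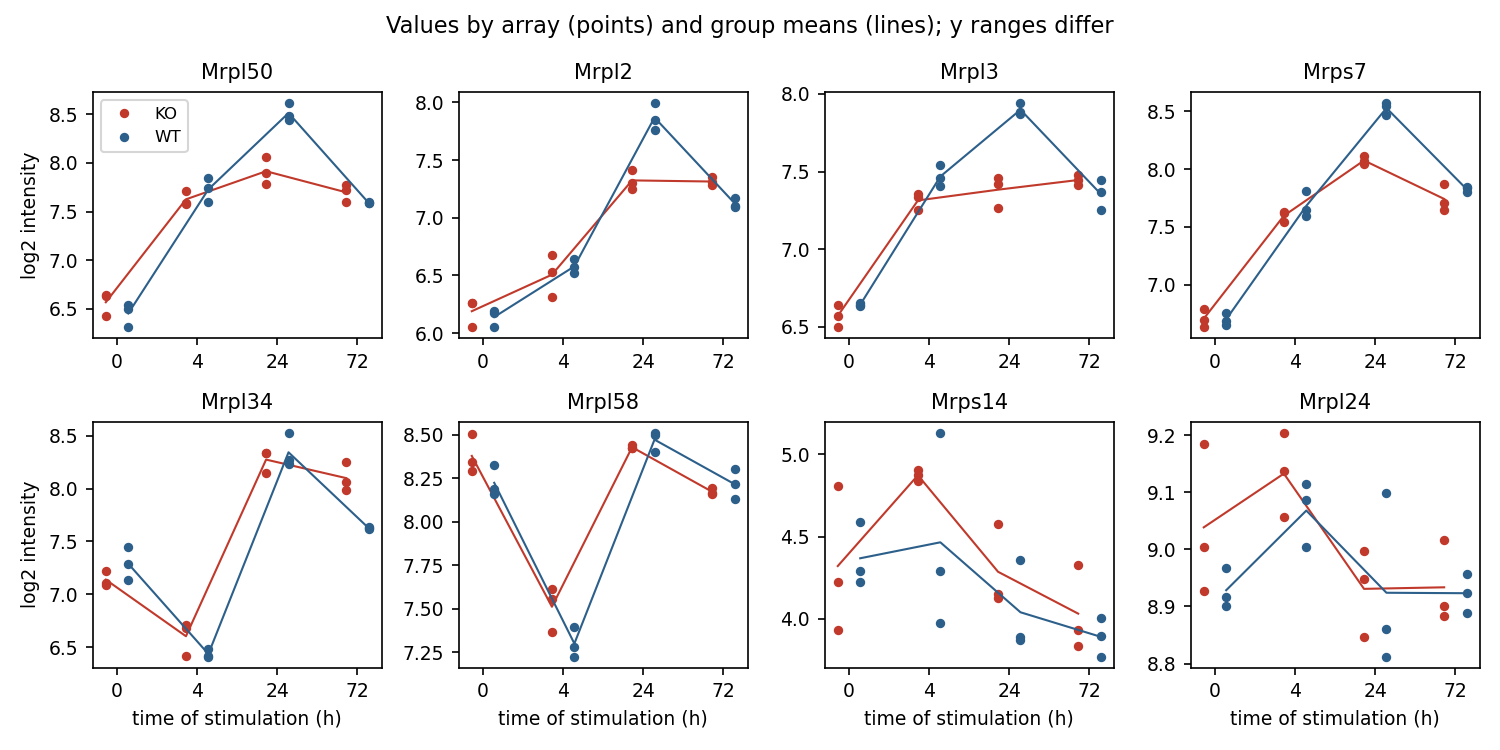
Log2 intensity (y axis) of 8 genes on every array (points) with group means (lines), KO in red and WT in blue, at 0, 4, 24 and 72 h (x axis, not to scale), each panel with its own range. In the upper row Mrpl50, Mrpl2, Mrpl3 and Mrps7 part at 24 h, and in the lower row Mrpl34 and Mrpl58 dip at 4 h in both genotypes while Mrps14 and Mrpl24 show no rise at 24 h.

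Before stimulation and at 4 h the genotypes differed little in these genes. At 0 h, 1 gene was higher and 1 lower, against 1.76% and 0.577% of all genes, with a median of 0.03. Mrps31 had 6.97, 7.02 and 6.75 on the KO arrays, against 6.67, 6.68 and 6.47 on the WT arrays, with no overlap and a difference of 0.31 (SE 0.081, adjusted p = 0.0358). Mrps24 had 6.98, 7.07 and 7.01 on the KO arrays, against 7.15, 7.41 and 7.34 on the WT arrays, also apart, with a difference of -0.28 (SE 0.076, adjusted p = 0.0497). Both calls were fragile: Mrps31 was lost without any 1 of the WT arrays or KO array 1 or 2, and Mrps24 without any 1 of the KO arrays or WT array 2 or 3. With the replicate number as a block Mrps24 no longer passed (adjusted p = 0.0553), which left a count of 1. At this time the B cell sums were 179 to 329 on the KO arrays and 88.7 to 208 on the WT arrays, and the myeloid sums 97.6 to 221 on the KO arrays and 73.6 to 82.5 on the WT arrays. Their part was not tested.

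At 4 h, 1 gene was higher and 0 were lower, against 3.3% and 0.834% of all genes, with a median of 0.00. At an unadjusted p under 0.05 in limma, 3 were higher and 5 lower. Mrpl14 had 4.49, 4.66 and 4.34 on the KO arrays, against 3.51, 3.85 and 3.85 on the WT arrays. Its groups did not overlap, and the difference was 0.76 (SE 0.15, adjusted p = 0.00281). Another gene passed as well without WT array 2 or KO array 3, which made the count 2. The change between 0 and 4 h differed between the genotypes for 0 of the 71 genes, against 0.446% higher and 0.28% lower over all genes. At an unadjusted p under 0.05 in limma it was higher in KO cells for 5 genes and lower for 3.

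The change between 4 and 24 h in KO cells minus that in WT cells was below 0 for 69 of the 71 genes. The share of all genes below 0 was not taken. The median of the 71 was -0.29, against -0.06 over all genes and -0.10 above the 40th percentile of mean level. Most of the 69 had a smaller increase in KO cells. Mrpl24, Mrps36 and Mrps14 had negative changes in both genotypes, of -0.20, -0.53 and -0.59 in KO cells and -0.14, -0.22 and -0.43 in WT cells. Past the threshold were 2 genes with a difference below 0, against 1.58% of all genes, and 0 with one above 0, against 0.645%. At an unadjusted p under 0.05 in limma, 31 had a difference below 0 and 0 one above 0. The share of all genes at that unadjusted level was not taken, so these counts have no baseline. Mrpl50 rose by 0.29 in KO cells and by 0.78 in WT cells, a difference of -0.50 (SE 0.13, adjusted p = 0.0353). Mrpl55, a mitochondria-specific protein, rose by 0.42 in KO cells and by 0.90 in WT cells, a difference of -0.48 (SE 0.13, adjusted p = 0.045). Neither call held without KO 24 h array 1, and the count over the 71 genes was 0 without WT 4 h array 1, KO 4 h array 2, WT 24 h array 1 or KO 24 h array 2. It was 1 without KO 4 h array 3, WT 24 h array 2 or KO 24 h array 1 or 3, 4 without KO 4 h array 1 and 7 without WT 4 h array 3.

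After 24 h the courses crossed. Between 24 and 72 h, 3 genes rose and 6 fell in KO cells (9.63% and 8.04% of all genes), and 1 rose and 45 fell in WT cells (11.6% and 15.8% of all genes). The median change was -0.04 in KO cells and -0.40 in WT cells, against -0.01 and -0.06 over all genes. The change differed between the genotypes for 22 genes, each with a smaller fall or a rise in KO cells, against 4.9% of all genes in that direction and 3.56% in the other. No gene passed in the other direction, nor at an unadjusted p under 0.05 in limma, by which 42 passed in the first direction. For the unadjusted counts no share of all genes was taken. The median difference was 0.36, against 0.06 over all genes. This comparison uses the same arrays of 24 h as the comparison of genotypes at that time, so the counts of the 2 comparisons are not independent.

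**Figure D5:**
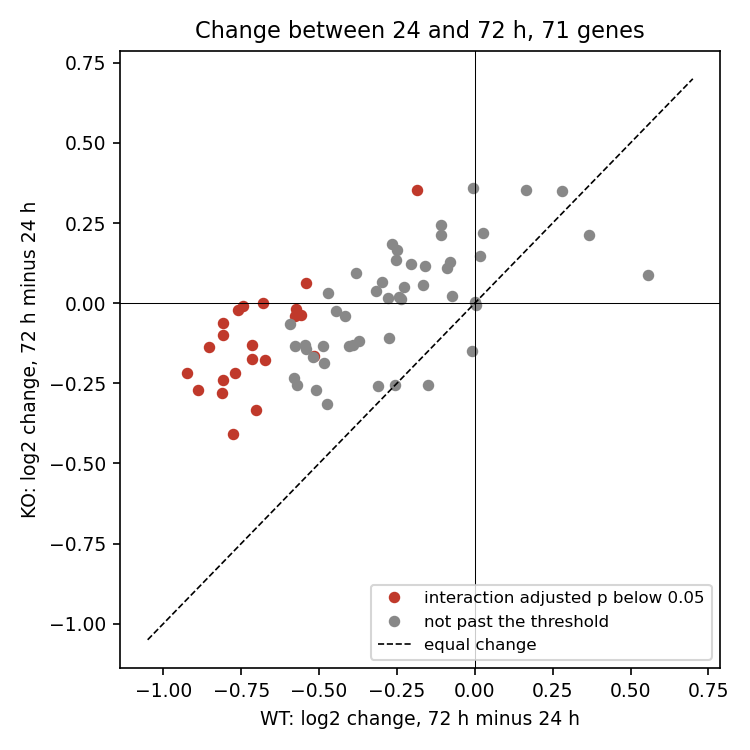
Change between 24 and 72 h of each of the 71 genes in KO cells (y axis) against WT cells (x axis), in log2 units; red points passed an adjusted p of 0.05 for the difference of the changes, and the dashed line marks equal change. The 22 red points lie above the line, and their KO changes run from -0.41 (Mrpl52) to 0.35 (Mrps30).

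Of the large subunit, 17 of 45 genes differed in this step, and of the small subunit 5 of 26. Mrpl20 had 6.74, 6.56 and 6.70 on the KO arrays at 72 h, against 6.70, 6.69 and 6.80 at 24 h, and 6.35, 6.53 and 6.25 on the WT arrays at 72 h, against 7.10, 7.05 and 7.41 at 24 h. The KO times overlapped and the WT times did not, with changes of -0.06 in KO cells and -0.81 in WT cells and a difference of 0.75 (SE 0.2, adjusted p = 0.0166). Its call was lost without WT array 3 at 24 or at 72 h.

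Mrpl18, a protein of the central protuberance, had 8.49, 8.48 and 8.60 on the KO arrays at 72 h, against 8.49, 8.63 and 8.51 at 24 h. On the WT arrays it had 8.12, 8.12 and 7.95 at 72 h, against 8.91, 8.74 and 8.81 at 24 h. The KO times overlapped and the WT times did not, with changes of -0.02 in KO cells and -0.76 in WT cells and a difference of 0.74 (SE 0.12, adjusted p = 0.000247).

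Mrpl2 had 7.28, 7.31 and 7.36 on the KO arrays at 72 h and 7.10, 7.17 and 7.11 on the WT arrays, the opposite order to that of 24 h, although the difference at 72 h did not pass (0.19, adjusted p = 0.33). Its change was -0.01 in KO cells and -0.74 in WT cells, a difference of 0.73 (adjusted p = 0.000517). For Mrpl11 the change was -0.14 in KO cells and -0.85 in WT cells, a difference of 0.72 (adjusted p = 0.00133). The remaining 18 differences past the threshold ran from 0.71 (Mrps21 and Mrpl50) to 0.35 (Mrps24).

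The genes that fell most in WT cells were Mrpl50 (-0.92), Mrpl55 (-0.89), Mrpl11 (-0.85) and Mrpl49 (-0.81). Mrpl32, a protein that the inner-membrane m-AAA protease matures, was the gene that rose there, by 0.56, with 6.99, 7.07 and 7.20 on the WT arrays at 72 h, against 6.73, 6.54 and 6.32 at 24 h. That call was close to the threshold (adjusted p = 0.0496) and was lost without any 1 of the WT arrays of 72 h or array 2 or 3 of 24 h. In KO cells Mrpl52 (-0.41), Mrps7 (-0.33), Mrpl54 (-0.31) and Mrpl49 (-0.28) fell most, and Mrpl35 (0.36), Mrps30 (0.35) and Mrpl39 (0.35) rose. Single arrays decided several of these KO calls: without KO 24 h array 1, the changes of Mrpl35, Mrpl39, Mrpl49 and Mrpl54 no longer passed. The count of 9 became 4 without that array, KO 24 h array 2 or KO 72 h array 2, and 5 without KO 72 h array 3.

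At 72 h, 4 genes were higher and 0 lower in KO cells, against 2.56% and 3.78% of all genes, and at an unadjusted p under 0.05 in limma 13 were higher and 2 lower. The median difference was 0.09, against 0.01 over all genes. Of the 71 differences, 52 were above 0, and the share of all genes above 0 was not taken. In 19 genes every KO array was above every WT array, against 12.5% of all genes. Another 6, Mrpl1, Mrpl14, Mrpl19, Mrpl32, Mrpl57 and Mrps10, had every KO array below every WT array, against 12% of all genes. Of the 30 genes lower in KO cells at 24 h, 21 had a difference above 0 at 72 h, and Mrpl18 and Mrpl42 were past the threshold in that direction.

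Mrpl34 had 8.25, 8.06 and 7.99 on the KO arrays at 72 h, against 7.62, 7.62 and 7.64 on the WT arrays, with no overlap and a difference of 0.47 (SE 0.097, adjusted p = 0.00198). Mrpl18 differed by 0.46 (SE 0.086, adjusted p = 0.000739). Mrps21, whose bacterial relative binds the platform of the small subunit, had 7.12, 6.92 and 6.79 on the KO arrays, against 6.54, 6.73 and 6.24 on the WT arrays. Its groups came within 0.1 of each other without overlap, with a difference of 0.44 (adjusted p = 0.0238). Mrpl42 differed by 0.30 (adjusted p = 0.0433). The calls for Mrps21 and Mrpl42 were lost without WT array 1 or 3 or KO array 1 or 2, and for Mrpl42 also without KO array 3. Natural killer marker sums at 72 h were 46.1 to 55.0 on the KO arrays, against 148 to 195 on the WT arrays, where Eomes, which activated T cells also express, was the 1 of 4 that passed. CD8 sums were 58.0 to 69.4 on the KO arrays, against 87.3 to 107 on the WT arrays, with Cd8b1 lower in KO cells and Cd8a not past the threshold. B cell sums were 70.8 to 127 on the KO arrays, against 57.9 to 65.8 on the WT arrays, with 0 of 5 past the threshold, and myeloid sums 48.2 to 56.2 on the KO arrays, against 51.1 to 56.0 on the WT arrays, with 0 of 7. T cell sums were 8155 to 8972 on the KO arrays, against 7540 to 7597 on the WT arrays, with Cd3d, Cd3e and Cd3g higher in KO cells. Their part was not tested.

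Against unstimulated cells, 63 genes were still higher and 1 lower at 72 h in KO cells (21.1% and 18.6% of all genes), and 61 higher and 0 lower in WT cells (22.2% and 18.3% of all genes), where 1 was lower at an unadjusted p under 0.05 in limma. The median change was 0.81 in KO cells and 0.66 in WT cells, against 0.01 and -0.01 over all genes. Mrpl45 stood 1.70 above 0 h in KO cells and 1.60 in WT cells. Mrps22 stood 1.68 above in KO cells and 1.84 in WT cells, and Mrps10 stood 1.52 above in KO cells and 1.74 in WT cells. Mrpl12 stood 1.34 above 0 h in KO cells and 1.37 in WT cells, and Mrpl32 1.17 in KO cells and 1.93 in WT cells. Mrpl58 was the 1 gene lower, by -0.21 in KO cells, a call lost without KO 0 h array 1 or any 1 of the KO arrays of 72 h.

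Other genes of mitochondrial translation were read from lists made for this purpose. Of 5 mitoribosomal proteins with other names, 3 were measured, and Ptcd3, a pentatricopeptide protein of the small subunit, was lower in KO cells at 24 h, by -0.37. Dap3 and Gadd45gip1 did not pass, at -0.19 and -0.29. All 3 were higher at 24 h than at 0 h in both genotypes. Of 24 assembly and rRNA modification genes, 4 were lower and 0 higher in KO cells at 24 h, with a list median of -0.21. Those with the largest differences were Gtpbp10 (-0.76), a GTPase of large-subunit assembly, Fastkd2 (-0.62), an RNA-binding protein of that pathway, and Mrm3 (-0.50), an rRNA methyltransferase.

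Of 14 translation factors, 3 were lower and 0 higher in KO cells at 24 h, with a median of -0.24: the initiation factor Mtif2 (-0.45) and the elongation factors Gfm1 (-0.40) and Tufm (-0.26). Of 21 genes of mitochondrial transcription and RNA processing, 8 were lower and 0 higher, with a median of -0.24, led by Fastkd3 (-0.66), the mitochondrial topoisomerase Top1mt (-0.65) and the tRNA-processing nuclease Elac2 (-0.49). Of 19 aminoacyl-tRNA synthetase genes and partners, 6 were lower, among them Yars2 (-0.62) and Qrsl1 (-0.52), and 1 was higher, with a median of -0.19.

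The gene that was higher was Nars2, the mitochondrial asparaginyl-tRNA synthetase, which stood apart from its list at every time. It had 7.21, 7.42 and 7.70 on the KO arrays at 24 h, against 6.53, 6.47 and 6.55 on the WT arrays, and the groups were far apart. The difference was 1.65 at 0 h, 1.66 at 4 h, 0.93 at 24 h and 0.91 at 72 h, past the threshold each time.

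Of 14 regulators linked to nuclear genes of mitochondria, 3 were lower and 0 higher in KO cells at 24 h, with a median of -0.17. Myc had 10.17, 10.32 and 10.33 on the KO arrays, against 10.76, 10.72 and 10.67 on the WT arrays, without overlap and with a difference of -0.44. The co-activators Ppargc1b and Pprc1 differed by -0.41 and -0.38. Of 12 genes of mitochondrial stress and quality control, 2 were lower, the chaperone Hspa9 (-0.28) and the protease subunit Afg3l2 (-0.25), and 1 was higher, the unfoldase Clpx (0.40), with a median of -0.17. These lists are set against the same 7.38% lower and 3.9% higher of all genes.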

How the data were processed

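RNA of 24 samples was measured on Affymetrix arrays. The deposited table holds log2 intensities made by the authors with RMA (oligo, R 3.1.0), according to the submitters' processing notes. The sources used here give no version of RMA or oligo. Because RMA equalises the distributions of the arrays, a shift of all genes together would not show, and low signals are compressed. Precision is limited by the small number of arrays.

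Genes of the 41345 probe sets were taken from the platform's annotation: 23521 have 1 gene symbol, 1814 have several and were left out, and 16010 have none listed there. Of the 23521, 23328 were matched by Entrez ID to RefSeq GRCm38.p6. The highest-mean probe set stood for each of 22180 genes, 1082 of which have several. Groups and numbers come from the sample titles. The 8 groups were fitted together in limma 3.58.1 (R 4.3.3; lmFit, contrasts, eBayes with a mean-variance trend), and p-values were adjusted by Benjamini-Hochberg over all genes. Medians, promoters and counts were taken in Python 3.11.15. The procedure was tested on simulated data. Of simulated differences of 0.5 between KO and WT cells at 24 h, 57% passed the threshold, and of differences of 1, 98%. In the simulation 100 genes of each size differed, all above the median level, and no other gene differed between any groups. In the data 1636 genes were lower and 865 higher in KO cells at 24 h. The adjusted threshold was therefore stricter in the simulation, and its shares do not describe recovery in the data. Smaller differences were not simulated. Up to 4 genes with the largest and the smallest changes past the threshold are named in each comparison. Other named genes are those least like the rest, those with a second probe set, and up to 3 of each list. Any member may also be named.

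The members and the lists were chosen with earlier results of these data known. Alternatives were another quantile normalization, centring on medians, averaging the probe sets of a gene, a filter at the 40th percentile (3.24), no trend, the replicate number as a block, arrays 1 and 2 alone, only the groups compared, and leaving out single arrays. No batch or date is given. Whether same numbers pair the arrays was checked by the correlation of their deviations from the group means. It was 0.0686 to 0.265 between same-numbered KO and WT arrays, above 0.1 in 10 of 12 pairs, including all pairs at 24 and 72 h, and -0.171 to 0.0557 between different numbers. Between consecutive times it was 0.0799 to 0.333 for same-numbered KO arrays, above 0.1 in 8 of 9 pairs, and 0.0104 to 0.229 for WT arrays, above 0.1 in 5 of 9. Because the deviations in a group cancel out, positive values for same numbers force lower ones between different numbers, so these ranges are not independent. Array 3 had the male pattern in every group, so for its pairs shared sex and a pairing of the arrays cannot be told apart.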

Additional observations from a re-analysis of the deposited data

Results flagged for a closer look

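The change between 4 and 24 h differed between KO and WT cells, by a test of the difference of the changes in limma, for 2 of the 71 genes, both with a difference below 0, against 1.58% of all genes below and 0.645% above 0. The difference was -0.50 for Mrpl50 and -0.48 for Mrpl55, in log2 units, and the call was lost in 9 of the other settings for Mrpl50 and in 13 for Mrpl55. The change between 24 and 72 h differed between the genotypes for 22 of the 71 genes, all with a difference above 0, against 4.9% of all genes above and 3.56% below 0, and those with the largest differences were Mrpl20 at 0.75, Mrpl18 at 0.74, Mrpl2 at 0.73 and Mrpl11 at 0.72.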

How the results depend on the processing

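The arrays number 3 per group, which limits the precision, and low values such as those of Mrpl27, Mrps36 and Mrps14 carry compressed changes. Of 273 counts under alternatives, 230 stayed within 1.5 times the reported count and 43 did not. The cause was not tested. Of 71 calls named for single genes, 52 kept their direction and their side of the threshold in every setting, and 0 reversed.

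The count for KO against WT at 24 h, reported as 30, was 22 after another quantile normalization, 20 with arrays 1 and 2 alone and 26 with only the groups compared. At 0 h the count of 2 became 1 with arrays centred on their medians or without the trend, and 0 with arrays 1 and 2 alone or when other groups were left out of the fit. With arrays 1 and 2 alone, it was 1 in place of 4 at 72 h, 31 in place of 48 for 24 against 4 h in KO cells, 3 in place of 9 for 72 against 24 h in KO cells, and 8 in place of 22 for the difference of the genotypes' changes between 24 and 72 h. Another quantile normalization gave 16 in place of 9 for 72 against 24 h in KO cells. For the difference of the changes between 4 and 24 h, the count of 2 became 4 when probe sets were averaged, 10 with the filter on level, and 0 after another quantile normalization, with arrays 1 and 2 alone or with only the groups compared. That normalization also gave a median of -0.03 at 0 h and -0.07 at 4 h.

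With the replicate number as a block, the count at 0 h was 1 in place of 2, as Mrps24 no longer passed, and it was 5 in place of 4 at 72 h. It stayed at 30 at 24 h, and the block changed no other of the 71 calls tallied above.

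Leaving out single arrays gave these ranges of counts. KO against WT ranged from 0 to 1 at 0 h, 1 to 2 at 4 h, 16 to 26 at 24 h and 2 to 4 at 72 h. In KO cells the ranges were 40 to 43 for 4 against 0 h, 38 to 46 for 24 against 4 h, 4 to 9 for 72 against 24 h, 63 to 64 for 24 against 0 h and 61 to 63 for 72 against 0 h. In WT cells they were 42 to 48, 58 to 62, 42 to 46, 67 to 68 and 57 to 62 in the same comparisons. The differences of the changes ranged from 0 to 0 between 0 and 4 h, 0 to 7 between 4 and 24 h and 18 to 23 between 24 and 72 h. Of the 30 genes lower in KO cells at 24 h, 14 passed without any 1 of the 6 arrays, and 13 passed in all 14 settings.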
